A study of Homo sapiens with 30 samples.

Results

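The genes described here are the 3 D-type cyclins (CCND1, CCND2, CCND3), the 2 kinases they bind (CDK4, CDK6) and 5 inhibitors of cyclin-dependent kinases (CDKN1A, CDKN1B, CDKN1C, CDKN2C, CDKN2D). They were taken by symbol from the RNA count tables, where all 10 were found among 27348 genes with a value for both replicate numbers. No measured value entered the rule that took them, but earlier results of these data were known when they were chosen.

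D-type cyclins are the cyclins that outside signals raise to drive a cell out of G1. They bind CDK4 or CDK6, and the complex phosphorylates the retinoblastoma protein and its relatives, which frees E2F factors to switch on the genes of S phase. The inhibitors come in 2 families. The INK4 proteins, here p18 from CDKN2C and p19 from CDKN2D, bind CDK4 and CDK6 themselves and keep them from the cyclins. The Cip/Kip proteins, p21 from CDKN1A, p27 from CDKN1B and p57 from CDKN1C, bind cyclin and kinase together and block CDK2 complexes most strongly. CDKN1A is the best known target of p53, and CDKN1C is an imprinted gene expressed mainly from the maternal copy. Human embryonic stem cells have a short G1 and are known for low levels of several of these inhibitors, and CCND1 is a classical target of Wnt signalling through beta-catenin.

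The cells were RUES2, an established human embryonic stem cell line, grown in the feeder-free medium TeSR E7 with a ROCK inhibitor, which all groups share. The first 4 groups were collected at 24 h: E7 (medium alone), E7_CPI (CPI-203 at 1 µM), WNT (Wnt3a at 100 ng/mL) and WNT_CPI (Wnt3a at 100 ng/mL with CPI-203 at 1 µM). CPI-203 is an inhibitor of the BET bromodomain proteins, which bind acetylated histones and recruit the elongation machinery. The other 4 groups were collected at 48 h: E7_ACT (medium alone on day 1, Activin A at 10 ng/mL on day 2), WNT_E7 (Wnt3a, then medium alone), WNT_ACT (Wnt3a, then Activin A) and WNT_CPI_ACT (both Wnt3a and CPI-203, then Activin A). In WNT_CPI_ACT the compound was given on day 1, per the labels. Activin A mimics Nodal and, after Wnt, drives pluripotent cells toward mesendoderm. Each group had 2 RNA libraries, of 36268324 to 43347733 counts. The labels do not say that the 2 were separate cultures, and p-values here reflect the spread between libraries, which may be technical.

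Levels are in CPM, the count of a gene divided by the TMM-scaled library total and scaled to a common size. Differences are log2 fold changes, each given with a standard error (SE), from edgeR's quasi-likelihood test in a single model of all 16 libraries, and a call means an adjusted p under 0.05 (Benjamini-Hochberg over 17355 tested genes). Counts are not divided by transcript length, so levels are compared between libraries and not between genes. A lower summed level cannot be told apart from fewer cells that express the gene. All 10 genes passed the filter on low counts, but CDKN2C passed only through the CPI-203 libraries in which it was high. It therefore had to differ, and its values are given as a description and not counted among the calls.

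The E7_CPI group stands apart. Its replicate 1 column does not line up with the genes of the table it is in. It was read against the gene list of the other table, in which its Spearman correlation with the other libraries was 0.954 to 0.986, against an absolute value of at most 0.00712 as deposited. Read that way, its 2 libraries differed far less than those of any other group: the median chi-square per gene was 1.13, against 0.455 for counting noise alone and 15.1 to 31.8 in the other 7 groups. In those 7 groups replicate 2 differed from replicate 1 in much the same genes (r = 0.471 to 0.92 over 12884 genes, in all 21 pairs of groups), and in E7_CPI it did not (r = -0.138 to -0.0348). The E7_CPI libraries are therefore not shown to be separate cultures, so the members' results that rest on them are also given without E7_CPI replicate 1, with the remaining library assumed to vary like the other groups. For the named genes of other lists, calls that were lost that way are given. Fits with the replicate number as a block treat E7_CPI as following that number too, which these correlations do not show. Without E7_CPI replicate 1, such a fit takes the remaining library to share the shift of replicate 2. Block values that rest on E7_CPI carry this limit.

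The label of the cells was checked against markers. The 9 pluripotency markers found summed to 6054 to 11802 CPM over the 16 libraries. They moved with CPI-203 at 24 h: 6 of the 9 (POU5F1, NANOG, DNMT3B, SALL4, DPPA4 and ZFP42) were called lower both in E7_CPI (list median -1.03, also 6 without E7_CPI replicate 1) and in WNT_CPI (-1.30), with none higher, against medians of -0.05 and -0.01 over all genes. The 9 neuroectoderm markers summed to 286 to 768 CPM, highest in the 4 libraries with CPI-203 at 24 h (588 to 768), where 3 of 9 were called higher in E7_CPI (2 without E7_CPI replicate 1) and 4 of 9 in WNT_CPI. Primitive streak markers were at 3.7 CPM in E7 and reached 1753 CPM in WNT_ACT replicate 1, against 397 CPM in WNT_ACT replicate 2. In WNT_CPI_ACT they stood at 271 and 39.5 CPM (replicates 1 and 2). Trophoblast and amnion markers were low, and lower with CPI-203, at 18.5 and 24.1 CPM in E7, 3.46 and 3.04 in E7_CPI, 9.98 and 14.9 in WNT, and 1.93 and 2.48 in WNT_CPI. Of the 5 tested, KRT7 and GABRP were called lower and TFAP2A higher in both comparisons, and GABRP alone in E7_CPI without E7_CPI replicate 1. Fibroblast markers summed to 379 to 1046 CPM, with DCN and FAP at 0 in every library, and 3 of the 5 tested were called lower in E7_CPI (2 without E7_CPI replicate 1) and 3 in WNT_CPI. Over all genes, 32.7% were called in E7_CPI and 31% in WNT_CPI, in either direction. Beside such shares, nothing particular to a marker list is read from its count of calls. The part of these marker changes in the results below was not tested. Of 626 genes on chromosome 22, 625 had no count, MCM5 among them.

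One day of CPI-203 moved members of both the cyclins and the inhibitors. CDKN1C and CDKN2D rose and CCND2 fell, with and without Wnt3a, while CCND1 fell in medium alone and did not fall with Wnt3a. Of the 9 members other than CDKN2C, 2 rose and 2 fell in E7_CPI against E7, beside 32.7% of all genes called in either direction. In WNT_CPI against WNT, 2 of the 9 rose and 1 fell, beside 31% of all genes. These shares are near the background, so it is the sizes and directions of single members that the account below rests on. With the replicate number as a block, 5 of the 9 were called in E7_CPI against E7 (50.8% of all genes) and 6 in WNT_CPI against WNT (47.4%). Without E7_CPI replicate 1 and without a block, 3 of the 9 were called in E7_CPI against E7 (17.5% of all genes): CCND1, CDKN1C and CDKN2D.

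**Figure D1:**
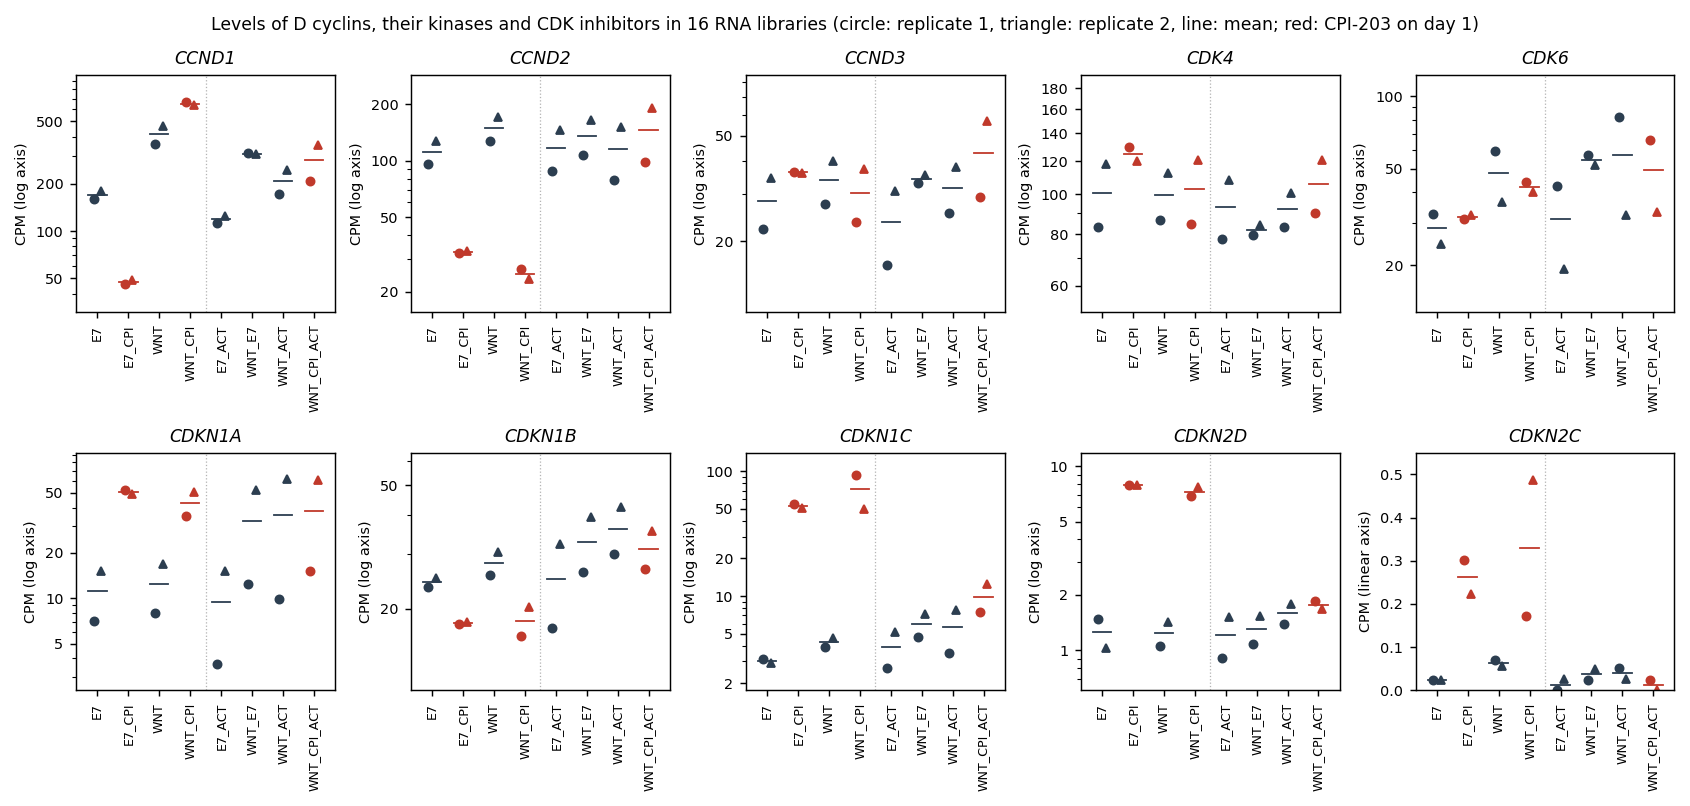
Level of each of the 10 genes in the 16 RNA libraries, in CPM (log axis, except a linear axis for CDKN2C). Circles are replicate 1, triangles replicate 2, lines the mean of the 2, and red marks groups that had CPI-203 on day 1. The 24 h groups are left of the dotted line. CDKN1C and CDKN2D are high in the 4 libraries with CPI-203 at 24 h and near the other groups at 48 h, and CCND2 shows the opposite pattern.

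CCND1, which codes for cyclin D1, had the second widest range of the 10 genes, 3.78 on the log2 scale between its lowest group mean (E7_CPI) and its highest (WNT_CPI). At 24 h it stood at 160.5 and 180.4 CPM in E7 (replicates 1 and 2), 45.9 and 48.9 in E7_CPI, 360.3 and 467.5 in WNT, and 664.1 and 637.4 in WNT_CPI. None of the 4 groups overlapped another. CPI-203 thus went with the lowest CCND1 level of the series when given alone and with the highest when given with Wnt3a.

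CCND1 fell by 1.85 in E7_CPI against E7 (SE 0.24, adjusted p = 0.000306, edgeR), which is 3.6-fold, and was lower by a log2 value of -1.80 (adjusted p = 0.00656) without E7_CPI replicate 1. In WNT_CPI against WNT its log2 difference was 0.65 (SE 0.24, adjusted p = 0.0583), which did not pass in edgeR without a block and passed with the replicate block (0.67, adjusted p = 0.0073). Wnt3a alone raised it by 1.28 (SE 0.24, adjusted p = 0.0428), 2.43-fold. With the replicate block the value was 1.27 (adjusted p = 0.00288), and DESeq2 called it too (adjusted p = 0.000316). In the fit without a block the call is close to the threshold and ended with DESeq2-type size factors (adjusted p = 0.0551) and when any 1 of the 4 libraries or E7_CPI replicate 1 was left out (adjusted p = 0.0915 to 0.41), although the log2 difference stayed between 1.08 and 1.46.

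The difference between the 2 CPI-203 effects on CCND1, which is the interaction of Wnt3a and CPI-203, was 2.50 on the log2 scale (SE 0.34, 95% confidence interval 1.75 to 3.25). Its adjusted p was 0.0715 in edgeR without a block, and no member passed there. At an unadjusted p under 0.05 there was 1 member, CCND1, and DESeq2 called 1. Few genes passed this test at all, 0.0115% of those tested. With the replicate block the interaction was 2.51 (adjusted p = 0.00248, 0.127% of all genes called), and in the block without E7_CPI replicate 1 it was 2.60 (adjusted p = 0.0101). Without E7_CPI replicate 1 and without a block its adjusted p was 0.582. The interactions of the other 9 genes lay between -0.98 and -0.05, none of them called in any fit.

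**Figure D2:**
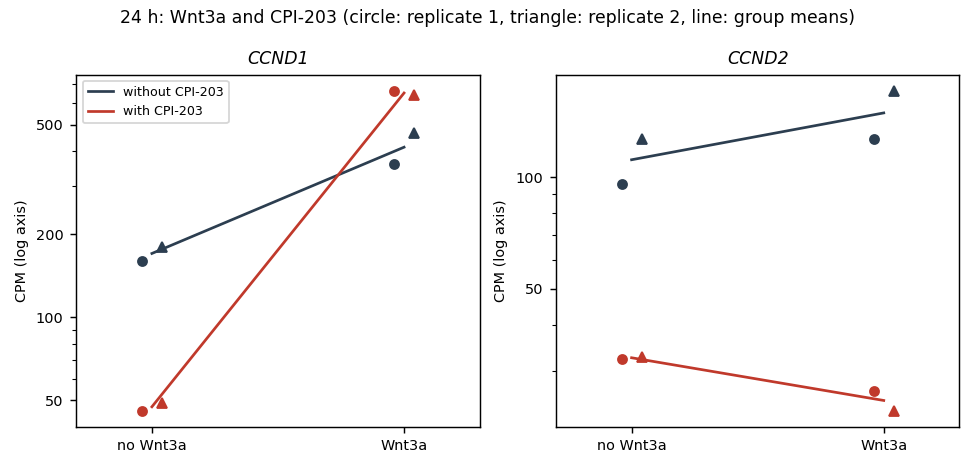
CCND1 and CCND2 at 24 h in CPM (log axis), without and with Wnt3a. Dark lines join the group means without CPI-203 and red lines those with it, circles are replicate 1 and triangles replicate 2. The CCND1 lines cross, from 45.9 and 48.9 CPM in E7_CPI to 664.1 and 637.4 in WNT_CPI, whereas CCND2 is lower with CPI-203 on both sides.

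At 48 h CCND1 stood at 113.5 and 125.1 CPM in E7_ACT, 314.8 and 309.7 in WNT_E7, 171.9 and 246.5 in WNT_ACT, and 210.2 and 354.7 in WNT_CPI_ACT. Both libraries of each group given Wnt3a on day 1 were above both of E7_ACT. The log2 difference of WNT_ACT from E7_ACT was 0.81 (SE 0.24, adjusted p = 0.104, edgeR), and with the block 0.79 (adjusted p = 0.0143).

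CCND2, which codes for cyclin D2, had its 4 lowest libraries in the CPI-203 groups at 24 h. Its levels were 96.2 and 127.0 CPM in E7, 32.4 and 32.8 in E7_CPI, 127.0 and 171.6 in WNT, and 26.5 and 23.4 in WNT_CPI. It fell by 1.78 in E7_CPI (SE 0.40, adjusted p = 0.00647, edgeR), 3.42-fold, and by 2.58 in WNT_CPI (SE 0.41, adjusted p = 0.000944), 5.98-fold. Without E7_CPI replicate 1 the former missed the threshold (-1.77, adjusted p = 0.0527), as it did without E7_CPI replicate 2 (adjusted p = 0.0503). The block kept it, with all libraries (-1.75, adjusted p = 0.000135) and without E7_CPI replicate 1 (-2.04, adjusted p = 0.000315). Levels at 48 h were 87.8 and 145.8 CPM in E7_ACT, 107.7 and 164.3 in WNT_E7, 79.2 and 151.7 in WNT_ACT, and 98.8 and 192.2 in WNT_CPI_ACT. These 4 groups overlapped one another, and all 8 of their libraries were above all 4 CPI-203 libraries of 24 h.

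CCND3, which codes for cyclin D3, had a range of 0.86 between group means and was called in no comparison in edgeR without a block. Its lowest library was E7_ACT replicate 1 at 16.2 CPM and its highest WNT_CPI_ACT replicate 2 at 56.7, and in every group except E7_CPI replicate 2 was above replicate 1. In E7_CPI against E7 its log2 difference was 0.35 (95% interval -0.53 to 1.24, and -0.795 to 1.498 without E7_CPI replicate 1) and in WNT_CPI against WNT -0.16 (-1.04 to 0.73).

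The kinases gave no call. CDK4 had the narrowest range of the 10 genes, 0.61, and lay between 77.9 CPM (E7_ACT replicate 1) and 129.5 (E7_CPI replicate 1) in all 16 libraries. Its log2 difference with CPI-203 was 0.31 in medium alone (95% interval -0.24 to 0.86, and -0.46 to 0.97 without E7_CPI replicate 1) and 0.05 with Wnt3a (-0.50 to 0.59). CDK6 spanned 19.2 CPM (E7_ACT replicate 2) to 81.9 (WNT_ACT replicate 1). Its WNT against E7 difference was 0.76 (-0.31 to 1.82) and its differences with CPI-203 were 0.15 (-0.91 to 1.21, and -1.19 to 1.55 without E7_CPI replicate 1) and -0.19 (-1.24 to 0.87). Neither kinase was called in any of the 9 comparisons, with or without the block.

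Among the Cip/Kip inhibitors CDKN1C, which codes for p57, had the widest range of the 10 genes, 4.47 on the log2 scale. Without CPI-203 it was at 3.15 and 2.91 CPM in E7 and 3.91 and 4.62 in WNT. With it the levels were 54.3 and 51.1 CPM in E7_CPI and 93.6 and 49.9 in WNT_CPI. The lowest of these 4 libraries, at 49.9, was far above the highest of the 4 without the compound, at 4.62. The rise was 4.12 in E7_CPI (SE 0.50, adjusted p = 0.000189, edgeR), or 17.4-fold, and 4.08 (adjusted p = 0.00176) without E7_CPI replicate 1. In WNT_CPI it was 4.07 (SE 0.50, adjusted p = 0.000189), or 16.8-fold. The interaction was -0.05 (95% interval -1.43 to 1.33).

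CDKN1A, which codes for p21, was high in every library with CPI-203 at 24 h, but it also differed strongly between replicate numbers. At 24 h it stood at 7.05 and 15.2 CPM in E7, 52.6 and 49.4 in E7_CPI, 7.95 and 16.8 in WNT, and 34.9 and 50.5 in WNT_CPI. At 48 h it stood at 3.68 and 15.1 CPM in E7_ACT, 12.5 and 52.4 in WNT_E7, 9.84 and 61.6 in WNT_ACT, and 15.1 and 61.1 in WNT_CPI_ACT. The CPI-203 libraries of 24 h did not overlap those without the compound, whereas 3 of the 48 h groups had 1 library at the CPI-203 level and 1 near the level of E7.

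The log2 difference of CDKN1A was 2.19 in E7_CPI (SE 1.02, adjusted p = 0.127, edgeR, and 0.263 without E7_CPI replicate 1) and 1.79 in WNT_CPI (SE 1.01, adjusted p = 0.213). With the replicate block both passed: 2.48 in E7_CPI (adjusted p = 0.00277) and 1.92 in WNT_CPI (adjusted p = 0.0114). In the block without E7_CPI replicate 1 the value in E7_CPI was 1.43, which takes the remaining library to share the shift of replicate 2. DESeq2 called the gene in E7_CPI (adjusted p = 0.044) and not in WNT_CPI.

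CDKN1B, which codes for p27, was lower in the CPI-203 groups of 24 h. It stood at 23.6 and 25.1 CPM in E7, 17.8 and 18.1 in E7_CPI, 25.7 and 30.3 in WNT, and 16.4 and 20.2 in WNT_CPI. Each CPI-203 group was below its matched group without overlap. The log2 differences were -0.44 (SE 0.30, adjusted p = 0.299, edgeR, and 0.518 without E7_CPI replicate 1) and -0.62 (SE 0.30, adjusted p = 0.152), and with the block the latter passed (-0.62, adjusted p = 0.0157). In the block without E7_CPI replicate 1, the difference in E7_CPI was -0.65 (adjusted p = 0.0272).

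Among the INK4 inhibitors CDKN2D, which codes for p19, gave the steadiest values. It stood at 1.48 and 1.03 CPM in E7, 7.85 and 7.86 in E7_CPI, 1.05 and 1.43 in WNT, and 6.86 and 7.69 in WNT_CPI. Its 12 libraries without CPI-203, or a day after it, lay between 0.914 and 1.86 CPM, all below the 4 CPI-203 libraries of 24 h. The rise was 2.65 in E7_CPI (SE 0.31, adjusted p = 0.000166, edgeR), or 6.26-fold, and 2.65 (adjusted p = 0.00199) without E7_CPI replicate 1. In WNT_CPI it was 2.55 (SE 0.31, adjusted p = 0.000196), or 5.86-fold.

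CDKN2C, which codes for p18, was barely counted. The libraries of E7 held 1 and 1 counts, of E7_CPI 11 and 8, of WNT 3 and 2, and of WNT_CPI 7 and 20. Those of E7_ACT held 0 and 1 counts, of WNT_E7 1 and 2, of WNT_ACT 2 and 1, and of WNT_CPI_ACT 1 and 0. Each CPI-203 library of 24 h was above each of the other 12. The ratio of E7_CPI to E7 was 11.0 (exact 95% interval 2.66 to 97.5) and of WNT_CPI to WNT 5.17 (1.96 to 17.2), where the intervals cover counting error only. The counts of the 2 libraries of a group were summed for these intervals, which are a description and not a test. No call is drawn from the adjusted p-values of CDKN2C (0.0131 and 0.0327 in edgeR), because the gene entered the test through these libraries. With no filter they were 0.0227 and 0.0583, and without E7_CPI replicate 1 they were 0.072 and 0.0524. Without WNT_CPI replicate 2 the latter was 0.276.

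**Figure D3:**
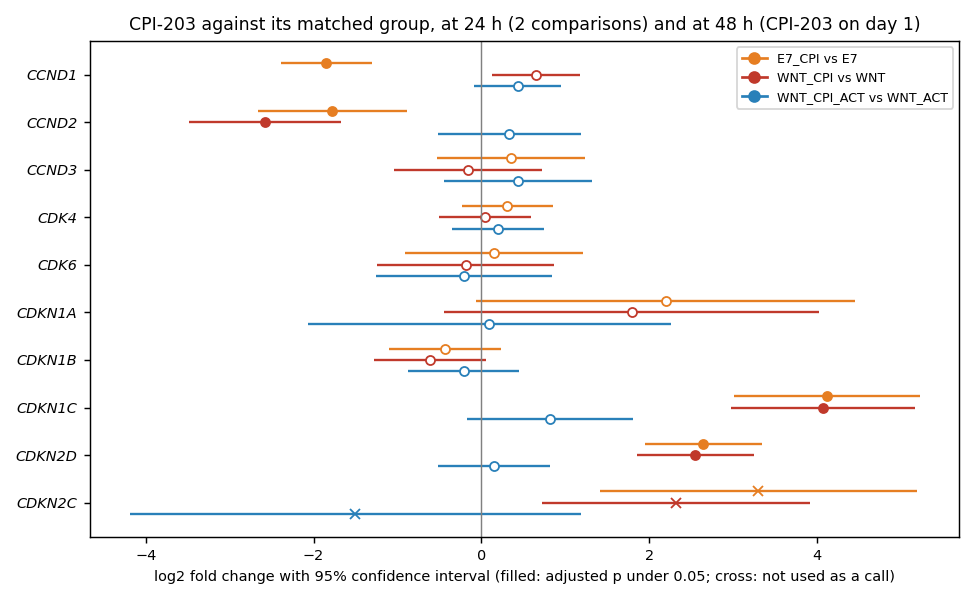
Log2 fold change of each of the 10 genes with its 95% confidence interval in E7_CPI against E7 (orange) and WNT_CPI against WNT (red) at 24 h, and in WNT_CPI_ACT against WNT_ACT (blue) at 48 h. Filled points have an adjusted p under 0.05 in edgeR without a block, and crosses mark CDKN2C, which is not counted as a call. CDKN1C and CDKN2D lie to the right and CCND2 to the left at 24 h, CCND1 differs in sign between the 2 comparisons of 24 h, and no point of 48 h is filled.

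The bases before the start are shown for 3 of the genes, 2 that were high with CPI-203 at 24 h and the 1 with the narrowest range. A RefSeq table of GRCh38.p14 promoters held 7 of the 10 genes and had no entry for CCND1, CCND2 or CDKN1C. Shown are 250 bases up to the start, 5′ to 3′ on the gene's strand, for CDKN1A (chr6:36678464-36678713, plus strand, inside the span of its longer transcripts) and CDKN2D (chr19:10568980-10569229, minus strand), which were high in all 4 libraries with CPI-203 at 24 h, and for CDK4 (chr12:57752311-57752560, minus strand), which had the narrowest range. Capitals mark matches on either strand to the GC box GGGCGG, the E-box CACGTG, the CCAAT box CCAAT and the TATA box TATAAA.
CDKN1A: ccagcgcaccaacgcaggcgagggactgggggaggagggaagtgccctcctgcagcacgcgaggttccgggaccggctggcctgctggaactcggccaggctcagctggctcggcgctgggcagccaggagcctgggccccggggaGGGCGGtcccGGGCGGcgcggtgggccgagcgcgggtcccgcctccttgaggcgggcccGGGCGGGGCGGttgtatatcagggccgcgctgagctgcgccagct
CDKN2D: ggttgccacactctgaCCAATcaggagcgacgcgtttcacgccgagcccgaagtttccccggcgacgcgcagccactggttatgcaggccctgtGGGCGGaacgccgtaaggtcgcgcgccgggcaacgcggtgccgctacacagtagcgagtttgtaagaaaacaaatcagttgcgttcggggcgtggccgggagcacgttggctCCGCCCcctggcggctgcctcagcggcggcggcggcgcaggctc
CDK4: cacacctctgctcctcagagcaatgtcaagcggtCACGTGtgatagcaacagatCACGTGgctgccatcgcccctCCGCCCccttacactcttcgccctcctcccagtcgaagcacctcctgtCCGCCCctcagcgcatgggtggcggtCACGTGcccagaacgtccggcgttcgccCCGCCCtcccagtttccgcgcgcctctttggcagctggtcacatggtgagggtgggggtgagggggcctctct
CDKN1A held 4 GC boxes, of which the last 2 share a base, and none of the other motifs. CDKN2D held 2 GC boxes, 1 on each strand, and 1 CCAAT box. CDK4 held 3 GC boxes, all on the other strand, and 3 E-boxes, whose letters read the same on both strands. None of the 3 windows had a TATAAA match. Of 35116 windows of this length in the table, 42.6% held a GC box, 32.0% a CCAAT box, 10.7% a TATAAA and 6.35% an E-box. A match is a description of the letters and not of binding.

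At 48 h the matched comparison gave no call. WNT_CPI_ACT, which had CPI-203 on day 1 and Activin A on day 2, was compared with WNT_ACT. No member was called (5.9% of all genes were), 0 members had an unadjusted p under 0.05, and DESeq2 called 0. CDKN1C was at 7.40 and 12.4 CPM against 3.48 and 7.77 in WNT_ACT, a log2 difference of 0.82 (95% interval -0.17 to 1.81). CDKN2D was at 1.86 and 1.67 CPM against 1.38 and 1.79, a difference of 0.15 (-0.52 to 0.82). CCND2 differed by 0.33 (-0.52 to 1.19) and CCND1 by 0.43 (-0.09 to 0.95). For CDKN1C and CDKN2D the upper bounds lie below the lower bounds of their rises at 24 h. The 2 groups also differed in primitive streak markers, at 271 and 39.5 CPM in WNT_CPI_ACT against 1753 and 397 in WNT_ACT. The list median was -3.70, with 1 of 7 tested called lower (5 with the block). The part of these markers in the members' values was not tested.

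Whether the effect of CPI-203 differed between the days was tested directly, as WNT_CPI_ACT against WNT_ACT minus WNT_CPI against WNT. It did for 3 members, beside 13.3% of all genes: CCND2 at 2.91 (SE 0.56, adjusted p = 0.00717, edgeR), CDKN1C at -3.26 (SE 0.64, adjusted p = 0.00812) and CDKN2D at -2.40 (SE 0.43, adjusted p = 0.00513). CDKN1A had a value of -1.70 (SE 1.40, adjusted p = 0.517). In the same test 6 of 9 pluripotency markers were called higher (list median 1.13, and 5 without E7_CPI replicate 1), and 1 of 9 neuroectoderm markers, NES, was called lower. CCND1 had -0.22 (SE 0.33, adjusted p = 0.773). The 48 h groups had Activin A on day 2, after the day of CPI-203. A change between the days can therefore go with the later time, Activin A or the end of CPI-203, which cannot be told apart.

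The libraries of WNT_CPI_ACT were also compared with those of WNT_CPI. This comparison shares the WNT_CPI libraries with the one above, and in it the later time, Activin A and the end of CPI-203 cannot be told apart. CCND2 rose by 2.54 (SE 0.41, adjusted p = 0.00123, edgeR). CDKN1C fell by 2.86 (SE 0.47, adjusted p = 0.00134), CDKN2D fell by 2.04 (SE 0.31, adjusted p = 0.000782) and CCND1 fell by 1.20 (SE 0.24, adjusted p = 0.00377). These 4 of the 9 members other than CDKN2C stood beside 26.9% of all genes called. CDKN2C had 27 counts over both libraries of WNT_CPI and 1 over those of WNT_CPI_ACT, a ratio of 28.0 (exact 95% interval 4.62 to 1147, counting error only and not a test). CDKN1B had a log2 difference of 0.77 (SE 0.30, adjusted p = 0.0851), which passed with the block (0.77, adjusted p = 0.00574, 42.7% of all genes called).

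Wnt3a and Activin A moved few members. Wnt3a alone called CCND1 and no other (0.605% of all genes called). After a day of Wnt3a, WNT_ACT against E7_ACT called no member in edgeR without a block (3.84% of all genes), with 1 member at an unadjusted p under 0.05 and 1 called by DESeq2, CCND1 in each case. The block called CCND1 there too (8.69% of all genes). CDKN1A differed by 1.93 (SE 1.02, adjusted p = 0.493) in that comparison, with WNT_ACT above E7_ACT at both replicate numbers. The block gave 1.81 (adjusted p = 0.0614, edgeR). Without E7_CPI replicate 1 the block gave 1.79 for CDKN1A and 0.57 for CDKN1B. Without a block the CDKN1A value was 0.07 without WNT_ACT replicate 2 and 3.28 without E7_ACT replicate 2. Activin A against medium on day 2, as WNT_ACT against WNT_E7, called none (0.882% of all genes), with 1 member at an unadjusted p under 0.05 and 0 called by DESeq2 or the block. That member was CCND1, at 171.9 and 246.5 CPM against 314.8 and 309.7, a difference of -0.58 (SE 0.24, adjusted p = 0.404).

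Several members differed between the replicate numbers. In the fit with the block, CDKN1A was higher in replicate 2 by 1.42 (SE 0.27, adjusted p = 0.00154, edgeR), in 7 of 8 groups. CCND3 was higher by 0.55 (adjusted p = 0.00165), CCND2 by 0.50 (adjusted p = 0.00505), CDKN1B by 0.38 (adjusted p = 0.0051), CDK4 by 0.32 (adjusted p = 0.00371) and CCND1 by 0.25 (adjusted p = 0.0319, in 6 of 8 groups). CDK6 went the other way, by -0.60 (SE 0.15, adjusted p = 0.00678), and was lower in replicate 2 in 7 of 8 groups. For CDKN1A the difference was largest at 48 h, 2.02 to 2.64 in the 4 groups, against 0.53 to 1.10 in E7, WNT and WNT_CPI and -0.09 in E7_CPI. CDKN1C and CDKN2D showed no call between replicate numbers (adjusted p = 0.241 and 0.301).

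**Figure D4:**
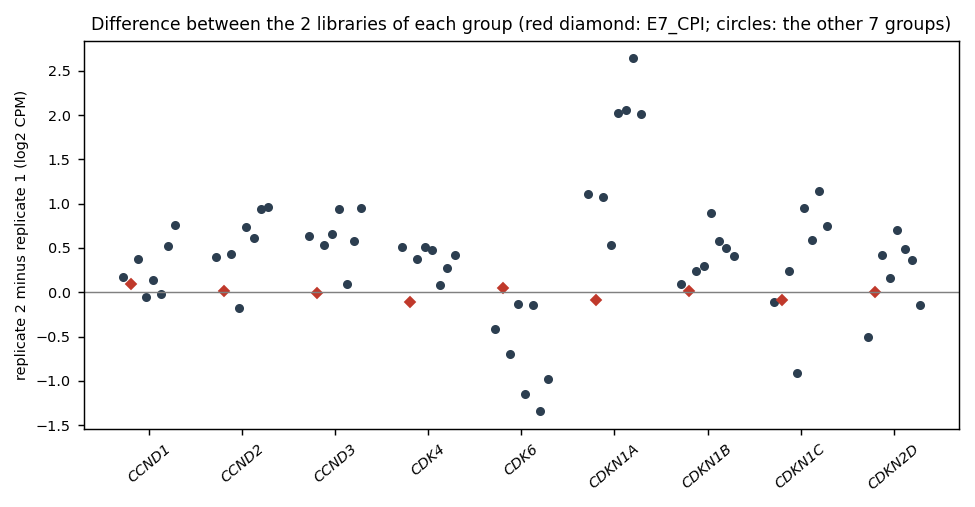
Replicate 2 minus replicate 1 on the log2 CPM scale for 9 of the genes (CDKN2C, with few counts, is left out), 1 point per group. Red diamonds are E7_CPI and circles the other 7 groups, drawn from left to right in the order of the plot of levels. CDKN1A reaches 2.64 and CDK6 lies below 0 in 7 of 8 groups, while the E7_CPI points all lie near 0.

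The genes around these 10 were counted in lists drawn up by their role in the pathway. Beside each count stand the shares of all genes called, 32.7% in E7_CPI (17.5% without E7_CPI replicate 1, 50.8% with the block) and 31% in WNT_CPI (47.4% with the block), and nothing particular to a list is read from its count. Of 10 E2F and DP factors, which the retinoblastoma proteins hold in check, 6 fell in E7_CPI (4 without E7_CPI replicate 1) and 5 in WNT_CPI, with none higher. The list's median was -0.53 and -0.39, against -0.05 and -0.01 over all genes. The largest falls in the list were in E2F2, an activator, with log2 differences of -3.52 (SE 0.25) in E7_CPI and -2.99 (SE 0.24) in WNT_CPI, and in E2F8, an atypical repressor, with -3.06 (SE 0.24) and -2.80 (SE 0.24). E2F2 went from 7.62 and 8.26 CPM in E7 to 0.631 and 0.753 in E7_CPI, and stood at 9.55 and 11.7 in WNT_CPI_ACT. TFDP2, a partner of the E2F factors, fell too, with -0.97 (SE 0.09) and -0.86 (SE 0.09). E2F3 and E2F5 also fell in both comparisons, and E2F1 in E7_CPI. Without E7_CPI replicate 1 the calls of E2F5 (adjusted p = 0.0513) and E2F1 (0.126) in E7_CPI were lost. In WNT_CPI_ACT against WNT_CPI, 6 of the 10 rose and none fell (4 without E7_CPI replicate 1).

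CCNE1, which codes for cyclin E1 and is itself an E2F target, was the only call among 6 genes of cyclin E, cyclin A and CDK2, and fell in both comparisons (log2 differences -0.69, SE 0.17, in E7_CPI and -0.65, SE 0.17, in WNT_CPI). With the block 2 of the 6 fell in each. The 3 pocket proteins (RB1, RBL1, RBL2) had no call at 24 h, and with the block 1 rose and 1 fell in each CPI-203 comparison. Of 15 S phase genes tested, 2 rose and 5 fell in E7_CPI (1 and 2 without E7_CPI replicate 1), and 3 rose and 4 fell in WNT_CPI. RRM2, a subunit of ribonucleotide reductase, rose by 0.98 (SE 0.14) and 1.01 (SE 0.14), whereas GINS2, a part of the replicative helicase, fell (-0.86, SE 0.19, and -0.64, SE 0.19). Other helicase subunits fell in both comparisons as well: MCM2 (-0.63, SE 0.20, and -0.74, SE 0.20), MCM6 (-0.67, SE 0.12, and -0.44, SE 0.12) and GINS1 (-0.56, SE 0.18, and -0.85, SE 0.18). In E7_CPI the calls of MCM2 (adjusted p = 0.11) and GINS1 (0.179) were lost without E7_CPI replicate 1. In the list of 12 G2 and M phase genes there was no call in either comparison, and with the block 2 rose and 2 fell in E7_CPI and 1 and 1 in WNT_CPI.

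The genes that make or break cyclin and inhibitor proteins were mixed. Of 9 genes for the turnover of D cyclins and p27, 2 rose and 2 fell in E7_CPI (1 and 1 without E7_CPI replicate 1), and 1 rose and 2 fell in WNT_CPI. CUL1, the scaffold of SCF ubiquitin ligases, fell (-1.06, SE 0.16, and -0.85, SE 0.16), and so did SKP2, the F-box protein that marks p27 for degradation (-0.39, SE 0.12, and -0.41, SE 0.12). GSK3B, a kinase that phosphorylates cyclin D1 for export and degradation, rose by 0.94 (SE 0.14) and 0.85 (SE 0.14). FBXO31, an F-box protein of cyclin D1, rose by 1.17 (SE 0.37) in E7_CPI and had 0.97 (SE 0.37, adjusted p = 0.0692) in WNT_CPI. Without E7_CPI replicate 1 the calls of SKP2 (adjusted p = 0.156) and FBXO31 (0.11) in E7_CPI were lost. Of 4 genes for the CDK-activating kinase and the chaperone CDC37, CDC37 rose by 0.53 (SE 0.16) in E7_CPI, a call lost without E7_CPI replicate 1, and MNAT1 rose by 0.44 (SE 0.13) in WNT_CPI. With the block 2 of the 4 rose in each.

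Of 18 genes for p53 and its targets other than CDKN1A, 8 rose and 1 fell in E7_CPI, with and without E7_CPI replicate 1, and 9 rose and 1 fell in WNT_CPI. With the block 11 rose and 3 fell in E7_CPI. TP53INP1 rose by 1.62 (SE 0.18) and 1.80 (SE 0.18), GADD45A by 1.38 (SE 0.22) and 1.72 (SE 0.23), and BTG2 by 2.20 (SE 0.55) and 1.62 (SE 0.54), all of them antiproliferative or stress genes. FAS, a death receptor in the same list, fell (-1.98, SE 0.27, and -0.81, SE 0.26). Without E7_CPI replicate 1 the call of BTG2 in WNT_CPI was lost. Several genes of this list are also induced without p53. PLK3, a stress kinase, rose by 1.25 (SE 0.23) and 1.48 (SE 0.24).

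Of 9 tested genes in the imprinted neighbourhood of CDKN1C at 11p15.5, 2 rose and 2 fell in E7_CPI (1 and 1 without E7_CPI replicate 1), and none rose and 3 fell in WNT_CPI (5 and 3 with the block). PHLDA2, a placental growth restrictor imprinted with CDKN1C, rose by 2.90 (SE 0.59) in E7_CPI, from 0.953 and 2.08 CPM to 11.8 and 10.8. NAP1L4 rose by 0.47 (SE 0.12) there. In WNT_CPI their values were 1.60 (SE 0.56, adjusted p = 0.0522) and 0.31 (SE 0.12, adjusted p = 0.0631). H19, a non-coding RNA of the neighbouring imprinted domain, fell in both (-1.70, SE 0.28, in E7_CPI and -1.35, SE 0.28, in WNT_CPI). ASCL2 fell by 3.51 (SE 0.87) in E7_CPI. Without E7_CPI replicate 1 the calls of NAP1L4 (adjusted p = 0.064) and ASCL2 (0.0857) were lost. KCNQ1 and TSSC4 fell in WNT_CPI (-2.84, SE 0.67, and -0.61, SE 0.21), and the call of TSSC4 was lost without E7_CPI replicate 1.

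The order of the groups differed between members. CDKN1C and CDKN2D ran nearly together over the 8 group means (Pearson r = 0.98), and CCND2 ran against them (r = -0.92 and -0.96). CCND1 followed none of these (r = -0.16 to 0.13). These correlations describe 8 group means that share the same libraries. Among 10354 genes at an average log2 CPM of at least 3, those most like CDKN1C over the 8 group means were TRAF6, SPAG9 and CPNE1 (r = 0.997, 0.996 and 0.995). Those most like CCND1 were HNRNPDL, BRD7 and AXIN2 (r = 0.953, 0.952 and 0.945), the last a feedback target of Wnt signalling. Those most like CDKN1A were POLH, UIMC1 and MBD6 (r = 0.983, 0.971 and 0.964). With 8 points and so many genes, high values of r are reached readily, and nothing of shared control follows from them.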

How the data were processed

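RNA was sequenced from 16 libraries of RUES2 cells. The authors deposited raw gene counts in 2 tables, 1 for each replicate number. The submitters' processing notes list featureCounts, Bowtie2, DESeq2, MACS2 and deepTools and name both GRCh37 and GRCh38; which aligner and build made the RNA counts is not given in the sources used here. One deposited column (E7_CPI replicate 1) was read in the gene order of the other table, which leaves 12 empty cells at its foot. Reading it as deposited would have scrambled that library.

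Counts were fitted with edgeR 4.0.16 (limma 3.58.1, R 4.3.3): genes filtered with filterByExpr, totals scaled by TMM (factors 0.9483 to 1.049), and a 2-sided quasi-likelihood F-test in 1 model of 8 groups (8 residual degrees of freedom, common biological coefficient of variation 0.271). The fit was also run on simulated counts. These had less spread than the data and no shift between replicate numbers, so that run does not bear on the replicate shift or the E7_CPI pair. Totals of 36268324 to 43347733 counts leave CDKN2C within counting error of few counts, where a count of 0 allows up to 3. The replicate numbers paired the samples in the 7 groups without E7_CPI (all 21 correlations over 0.1), so a fit with that number as a block (coefficient of variation 0.147) is printed beside calls that it changed. Other alternatives were DESeq2 1.42.0, other scalings and filters, and leaving out each library. Leaving out E7_CPI replicate 1 in comparisons without that group was chosen after seeing the data.

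The 10 genes, the lists around them and the tests were chosen with earlier results of these data known. All 10 genes are described; from each list every called gene was eligible where 5 or fewer were called, and otherwise the 4 with the largest change. Likeness was computed for the 3 genes of widest range. The 1 combined list of 313223 peaks from 14 ATAC libraries, with positions in base pairs (another unit than counts, per the file headers) and no signal per sample, was not used: its positions overlapped 13.0% of GRCh38 promoters, and 10.5% when moved by 5000 bases, and its build, which was not tested further, could not be settled.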

Additional observations from a re-analysis of the deposited data

Results flagged for a closer look

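For 3 of the 9 genes other than CDKN2C, the difference that went with day 1 CPI-203 changed from 24 h to 48 h. Beside them, 13.3% of all genes were called. The test was WNT_CPI_ACT against WNT_ACT minus WNT_CPI against WNT (edgeR). In it the later time, Activin A on day 2 and the end of CPI-203 cannot be told apart. CCND2 had a change of the effect of 2.913 on the log2 scale, from low with the compound at 24 h to level at 48 h. CDKN1C had -3.256 and CDKN2D had -2.401, from high at 24 h to near the matched group at 48 h. All 3 kept their call without any single library of the 4 groups. In the same test 6 of 9 pluripotency markers were called higher (list median 1.13, with POU5F1 at 0.87 and NANOG at 5.79; 5 of 9 without E7_CPI replicate 1, where POU5F1 was not called), and 1 of 9 neuroectoderm markers, NES, was called lower. Pluripotency markers summed to 6459 and 7344 CPM in WNT_CPI, 9485 and 11394 in WNT, 7278 and 9576 in WNT_CPI_ACT and 6054 and 8313 in WNT_ACT. Neuroectoderm markers stood at 768 and 588 CPM in WNT_CPI, 298 and 325 in WNT, 479 and 481 in WNT_CPI_ACT and 557 and 444 in WNT_ACT. Primitive streak markers stood at 51.0 and 41.0 CPM in WNT_CPI and 76.6 and 79.6 in WNT. At 48 h they stood at 271 and 39.5 in WNT_CPI_ACT and 1753 and 397 in WNT_ACT. Of the 7 tested in the same test, 1, TBX6, was called higher (list median -1.71). The part of any of these lists in these changes was not tested.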

How the results depend on the processing

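Of 90 member values, 60 were called in no setting, and 36 of these changed sign in some setting. For the other 30, alternatives kept direction and side of the threshold 326 times, gained a call 23 times, lost one 18 times and turned the sign 2 times. Both turns came with a left-out library: CCND3 in WNT_CPI_ACT against WNT_CPI ran from -0.0512 to 0.902, and CDKN1A in the change of the CPI-203 effect from -3.03 to 0.166. The counts that follow include CDKN2C, and with the block the share of all genes called moved as well. It went from 31% to 47.4% in WNT_CPI against WNT and from 0.0115% to 0.127% in the interaction. In WNT_ACT against E7_ACT it went from 3.84% to 8.69%. Of the 9 members other than CDKN2C, the block called 6 (from 3) in WNT_CPI against WNT. Leaving out a library also lowered the number of all genes called in WNT against E7 and in E7_CPI against E7. With the replicate block, members called were 7 (from 4) in WNT_CPI against WNT, 1 (from 0) in the interaction and 1 (from 0) in WNT_ACT against E7_ACT. The block without E7_CPI replicate 1 keeps 1 library of E7_CPI, and its number of members called is not counted here. DESeq2 called 1 in the interaction and 1 in WNT_ACT against E7_ACT. In WNT against E7, DESeq2-type size factors gave 0 and leaving out a library 0 to 0 (from 1). In E7_CPI against E7, fewer members than 5 were called when a library was left out. Without E7 replicate 1, or without E7 replicate 2, the only call lost was that of CDKN2C, which is not used as a call. The call of CCND2 was lost without E7_CPI replicate 1 (log2 difference -1.77) and without E7_CPI replicate 2 (-1.79). Without E7_CPI replicate 1 that of CDKN2C was lost too. The cause was not tested. The planned look for peaks at the genes' start sites gave no value, because the build of the peak positions could not be settled. Depth limits CDKN2C, whose libraries held at most 20 counts.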
